A study of Rattus norvegicus with 9 samples.

Results

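The genes described here are transcription factors of the bHLH-PAS family and the related factors of the molecular clock and the response to low oxygen. 6 symbols were chosen, Arnt2, Epas1, Ahr, Arntl2, Bhlhe40 and Bhlhe41, and each was looked for by the gene ID that the study pairs with it. 2 of the 6 were found, Arnt2 (ENSRNOG00000013017) and Epas1 (ENSRNOG00000021318), among 26249 genes and gene-like units in the data. The IDs of Ahr, Arntl2, Bhlhe40 and Bhlhe41 were matched in none of the 9 files, and these 4 genes were not analysed here.

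The mRNA of mesenchymal stem cells (MSCs) from rat bone marrow was sequenced before and after induction into neural progenitor cells (NPCs), with stranded libraries made from 300 ng of total RNA. There were 3 groups of 3 libraries: untreated MSCs at passage 3, NPCs kept for 3 days with EGF and bFGF, and NPCs kept for 3 days with EGF, bFGF and IGF1. The MSC lines came from 3 Sprague-Dawley rats aged 4 weeks, EGF and bFGF were used at 20 ng/ml each in the study's methods, and no dose of IGF1 was found in the labels or the methods. In the study's methods MSCs grew attached, while cells with EGF and bFGF were induced in ultra-low attachment plates in NeuroCult NS-A medium. Comparisons of those cells with MSCs therefore do not single out the growth factors. Cultures of bone marrow MSCs can hold other marrow cells. In the study's methods the NPCs were derived from the MSCs of the same 3 rats, but which rat gave which library is not stated in the labels.

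Proteins of the bHLH-PAS family bind DNA as pairs. A partner whose level or activity is regulated, such as EPAS1 (also called HIF-2 alpha) or AHR, joins a partner of the ARNT class, and the pair then binds short motifs near its target genes. EPAS1 is degraded where oxygen is plentiful and accumulates where it is scarce, so its mRNA level is not its protein level. ARNT2 is a partner of the ARNT class that is best known from neurons and the developing hypothalamus, where it pairs with SIM1, NPAS4 and the HIF alpha subunits.

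The sequences just before the RefSeq transcription starts of both genes are shown as background. These windows were not matched to the starts of the transcripts assembled in these libraries, which have other coordinates. Epas1 lies on the minus strand in GRCr8 and on the plus strand in the coordinates of the assembled transcripts. They are the 250 bases upstream of the RefSeq start in the GRCr8 assembly, chr1:147801884-147802133 on the minus strand for Arnt2 and chr6:13624730-13624979 on the minus strand for Epas1, written 5′ to 3′ with each CG dinucleotide in capitals.
Arnt2: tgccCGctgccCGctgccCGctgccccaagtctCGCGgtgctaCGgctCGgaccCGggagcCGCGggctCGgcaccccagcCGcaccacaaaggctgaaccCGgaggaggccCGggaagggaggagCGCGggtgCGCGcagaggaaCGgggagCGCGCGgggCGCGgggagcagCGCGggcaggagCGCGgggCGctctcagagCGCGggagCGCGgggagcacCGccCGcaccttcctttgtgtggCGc
Epas1: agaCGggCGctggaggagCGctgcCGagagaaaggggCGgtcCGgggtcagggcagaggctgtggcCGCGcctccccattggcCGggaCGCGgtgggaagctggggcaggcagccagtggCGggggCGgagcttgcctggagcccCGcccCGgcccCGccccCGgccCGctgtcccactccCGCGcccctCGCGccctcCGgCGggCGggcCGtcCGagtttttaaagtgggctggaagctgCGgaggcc
Both windows were rich in GC. The Arnt2 window held 36 CG dinucleotides at a GC content of 77.6% and the Epas1 window 28 at 76.8%, against medians of 5 and 51.2% over the windows of 33469 RefSeq promoters. Neither window contained, on either strand, the E-box CACGTG, the hypoxia core ACGTG (which the E-box also contains) or the AHR core GCGTG. These letters were present in 5.59%, 16.6% and 25.9% of the 33469 windows, respectively, and their absence says nothing about binding of a factor.

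Expression is given as FPKM, a count of fragments scaled to the length of the transcript and to the size of the library, summed over the isoforms of a gene within a library. Arnt2 was high in MSCs and low after induction. Its FPKM in MSC libraries 1 to 3 was 3.45, 3.40 and 2.98 (3.28 ± 0.259, SD, n = 3). In the NPC libraries it was 0.123, 0.149 and 0.256 (0.176 ± 0.0704, SD, n = 3). With IGF1 added it was 0.201, 0.167 and 0.154 (0.174 ± 0.0244, SD, n = 3). Every MSC library was above every induced library, and the values of both induced groups overlapped.

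Epas1 had the opposite order of groups. Its FPKM in MSC libraries 1 to 3 was 0.750, 0.604 and 0.560 (0.638 ± 0.0995, SD, n = 3). The NPC libraries gave 2.66, 2.61 and 2.73 (2.67 ± 0.0575, SD, n = 3), and the libraries with IGF1 gave 2.42, 2.701 and 2.695 (2.605 ± 0.160, SD, n = 3). All 6 induced libraries were above the 3 MSC libraries, and the induced groups again overlapped.

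**Figure D1:**
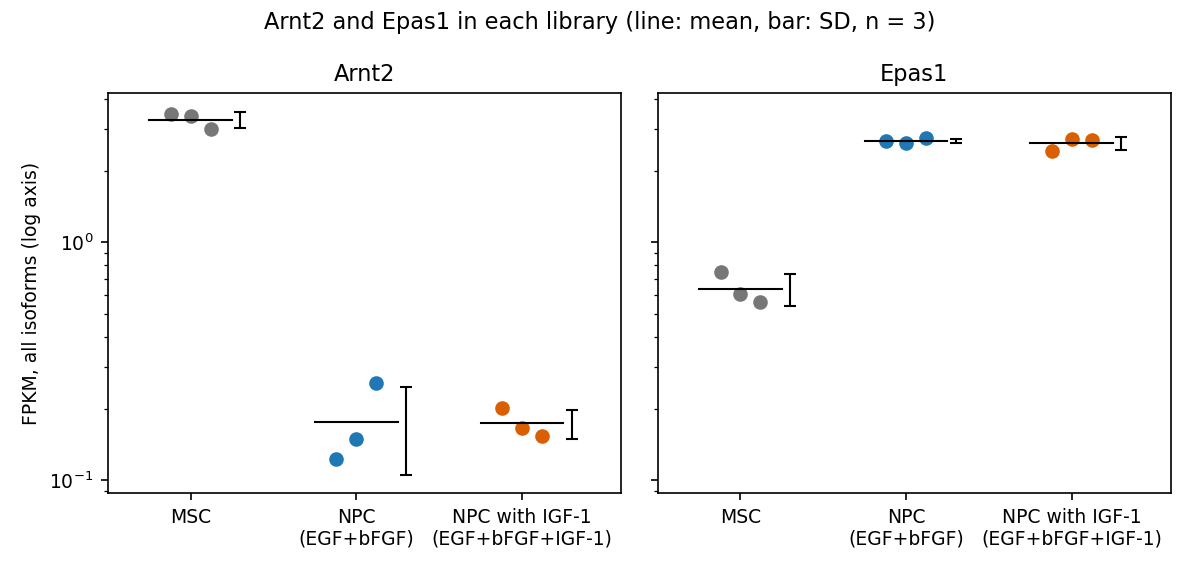
FPKM of Arnt2 (left) and Epas1 (right) in each library on a log axis, by group; points are libraries, lines are means and bars are SDs of 3 libraries. Arnt2 lies between 2.98 and 3.45 in MSCs and between 0.123 and 0.256 in the induced libraries, while Epas1 lies between 0.560 and 0.750 in MSCs and between 2.42 and 2.73 after induction.

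NPCs were compared with MSCs with limma on log2(FPKM + 0.1) across all genes, and a gene was called where its log2 fold change reached 1 in size with a Benjamini-Hochberg adjusted p no higher than 0.05. Both genes passed. Arnt2 fell by 3.70 on this log2 scale (SE 0.269, 95% confidence interval -4.32 to -3.07, limma adjusted p = 0.000101), and its mean FPKM was 18.6-fold lower in NPCs. It stood at rank 80 from the lowest fold change of 13696 genes. Epas1 rose by 1.84 (SE 0.216, interval 1.34 to 2.35, limma adjusted p = 0.000768), and its mean FPKM was 4.18-fold higher, at rank 592 from the highest. Of all genes tested in this comparison 21.5% were called, 11.5% upward and 10.1% downward, and 51.1% had groups that did not overlap. The study lists both genes as changed between NPCs and MSCs on these same 6 libraries, so their calls and directions here are not independent evidence.

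The libraries with IGF1 gave values close to those of NPCs when set against the same MSC libraries. Arnt2 fell by 3.70 (SE 0.243, limma adjusted p = 8.72e-06) and was 18.8-fold lower in mean FPKM. Epas1 rose by 1.8 (SE 0.176, limma adjusted p = 7.77e-05) and was 4.08-fold higher. In this comparison 21.4% of 14228 genes were called, 11.6% upward and 9.8% downward, and 55.2% had groups that did not overlap. Because both comparisons use the same 3 MSC libraries, the second is not a separate repeat of the first.

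Adding IGF1 to EGF and bFGF left no detectable difference in either gene. The log2 difference between both induced groups was 0.0063 for Arnt2 (SE 0.243, interval -0.541 to 0.553) and -0.05 for Epas1 (SE 0.176, interval -0.445 to 0.348), each with a limma adjusted p of 1. These intervals reach to 0.553 in size for Arnt2 and 0.445 for Epas1, so smaller differences could not be seen with 3 libraries a group. Only 3 of 14228 genes, or 0.0211%, were called between the induced groups, and 9.66% had groups that did not overlap. In bulk RNA of this kind, fewer cells expressing a gene and less of its mRNA per cell cannot be told apart.

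FPKM are scaled by transcript length, which allows both genes to be set against each other within a library. The ratio of Epas1 to Arnt2 FPKM was 0.2175, 0.178 and 0.188 in the MSC libraries. It was 21.7, 17.6 and 10.7 in the NPC libraries and 12.02, 16.2 and 17.5 with IGF1. On these sums over isoforms, Arnt2 was the higher of the pair in each MSC library, and Epas1 in each induced library. On annotated transcripts alone the order turned in library 1 with IGF1, where Epas1 was listed at 0 and Arnt2 stood at 0.201 FPKM. There all of the Epas1 FPKM, 2.42, was assigned to a longer isoform that is described below. The mean log2 ratio was 6.36 higher in NPCs than in MSCs and 6.28 higher with IGF1, and each difference had an exact two-sided permutation p of 0.1, the smallest that 3 libraries against 3 can give. As both genes separated these groups in opposite directions, this p could take no other value and adds no evidence. Between both induced groups it differed by -0.09 (exact permutation p = 0.8).

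The depth behind these levels was unequal. The widths of the deposited confidence intervals gave 42.8 to 51.2 M reads for MSC libraries, 38.9 to 47.5 M for NPCs and 42.5 to 48.4 M with IGF1. The FPKM of Arnt2 then stand for about 843 to 1078 reads in an MSC library and 31 to 75 in an induced library. Those of Epas1 stand for about 69 to 87 reads in an MSC library and 359 to 510 in an induced library. The rarer state of each gene thus rested on fewer than 100 reads a library.

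The sums were made up of different isoforms in different libraries. The authors' assembly could place unannotated isoforms beside the annotated transcript of a gene. Arnt2 has 1 annotated transcript (ENSRNOT00000017636) of 19 exons and 6192 bases at chr1:147327952-147484879 on the minus strand, in the files' own coordinates, for which no build was named in the labels. This transcript alone was present in MSC library 3, in the 3 NPC libraries and in libraries 1 and 2 with IGF1.

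MSC library 1 held, beside the annotated transcript at 2.13 FPKM, an Arnt2 isoform with another first exon at 1.31 FPKM (deposited 95% interval 1.13 to 1.497). This first exon of 281 bases lies inside the annotated first intron of 45777 bases, and its start is 44676 bases downstream of the annotated start. An intron of 899 bases joins it to the annotated exon 2, and the isoform has 17 of the 18 annotated introns. MSC library 3 held a separate single-exon transcript of 175 bases that lies within the same first exon, at 19.9 FPKM with a wide interval of 8.36 to 31.4, which stands for about 12 reads. No transcript from this exon was assembled in MSC library 2 or in the 6 induced libraries. An induced library held 31 to 75 Arnt2 reads, and whether this exon was in use there was not tested.

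MSC library 2 held an Arnt2 isoform at 0.757 FPKM whose exon 4 is 12 bases shorter, and library 3 with IGF1 one that lacks exon 18, of 137 bases, at 0.112 FPKM beside 0.0421 FPKM of the annotated transcript. Each of these 3 unannotated Arnt2 isoforms was assembled in a single library. The Arnt2 fold change did not turn on them. With annotated transcripts alone, Arnt2 fell by 3.25 in NPCs (limma adjusted p = 0.00884) and by 3.54 with IGF1 (limma adjusted p = 0.0017).

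Epas1 differed in that 1 kind of unannotated isoform recurred. Its annotated transcript (ENSRNOT00000034991) has 16 exons and 2715 bases at chr6:20299621-20377837 on the plus strand of the files' build. All 6 induced libraries held a longer isoform with the same 15 introns, which began 395 to 456 bases before the annotated start and ended 53 to 2024 bases beyond the annotated end. NPC libraries 1 to 3 held 2.01, 1.43 and 1.85 FPKM of the longer isoform, and those with IGF1 2.42, 1.805 and 1.91 FPKM. No longer isoform was assembled in the MSC libraries.

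The longer isoform carried 54.6 to 75.5% of Epas1 FPKM in NPCs and all of it, 66.8% and 71.0% in libraries 1 to 3 with IGF1. The annotated transcript alone was at 0.652, 1.19 and 0.877 FPKM in NPCs, against 0.750, 0.604 and 0.560 in MSCs. With IGF1 it was listed at 0 in library 1, where the longer isoform also had an additional intron of 113 bases in its first exon, and stood at 0.896 and 0.783 in libraries 2 and 3. The annotated transcript taken alone therefore overlapped between MSCs and both induced groups.

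**Figure D2:**
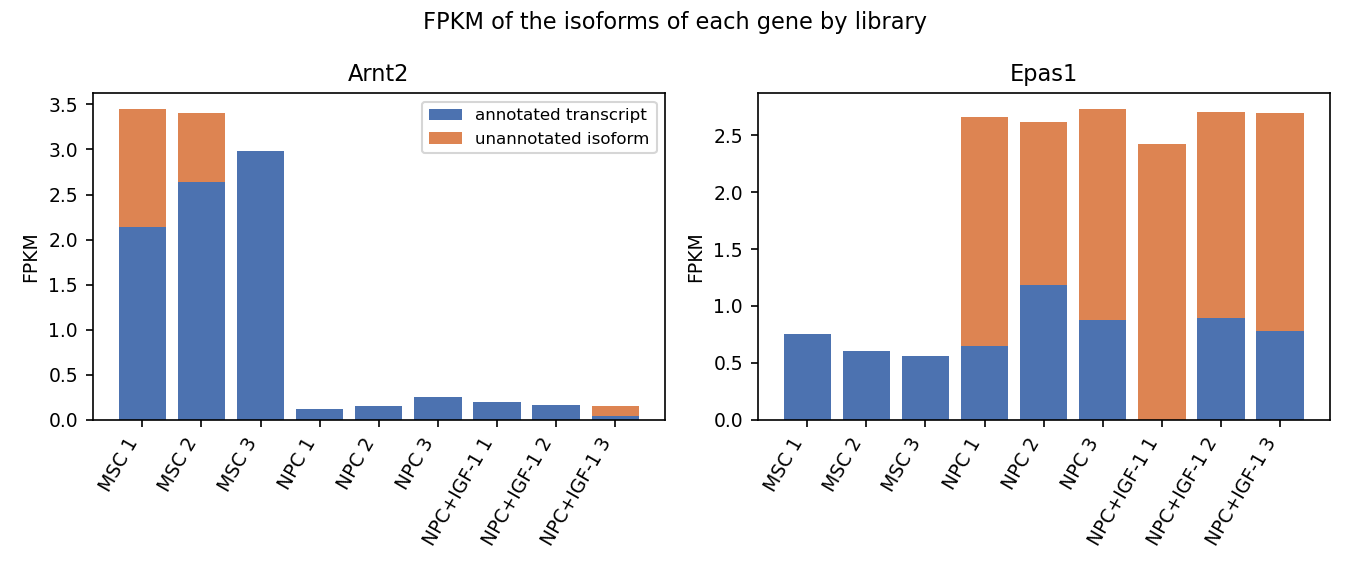
FPKM of the annotated transcript and of unannotated isoforms of Arnt2 (left) and Epas1 (right), stacked in 1 bar per library. The unannotated part of Epas1 lies between 1.43 and 2.42 FPKM in the 6 induced libraries and is missing in MSCs, whereas unannotated Arnt2 isoforms are seen in MSC libraries 1 and 2 and in library 3 with IGF1.

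The call of Epas1 rested on adding this isoform, which has all 15 annotated introns. Reads in the exons that both share were divided between them by the assembly, so the annotated value alone is not the level of Epas1. On annotated transcripts alone, its log2 fold change was 0.46 in NPCs (SE 0.386, limma adjusted p = 0.495) and -0.70 with IGF1 (SE 0.844, limma adjusted p = 0.634), and neither passed. Over all genes, 497 of the 1570 that rose in NPCs (31.7%) and 537 of the 1381 that fell (38.9%) were still called in that direction on annotated transcripts alone. At least 1 unannotated isoform, not necessarily the same, was assembled in each of the 6 induced libraries and in no MSC library for 111 of 13696 genes (0.81%), and for 50 of the 1570 that rose (3.18%). The opposite pattern, in each MSC library and in no induced library, was seen for 49 genes (0.358%). The number of unannotated transcripts assembled also differed by group, with 28763 to 36570 in an MSC library and 64618 to 90998 in an induced library, as did the number of Epas1 reads, and their part in the recurrence of the longer isoform was not tested.

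Transcripts beyond the annotated 3′ end of Epas1 were present in every group. In NPC library 1 and in library 3 with IGF1 the longer isoform itself reached 2024 and 2021 bases past the annotated end. In the 4 other induced libraries it stopped earlier, and a separate single-exon transcript on the same strand, at 1.79 to 2.72 FPKM, continued to 2020 to 2024 bases past the end. The far end of Epas1 transcription thus lay at nearly the same base in all 6 induced libraries. Each MSC library also held such single-exon transcripts, which lay between 949 and 1996 bases past the annotated end and stood for about 10 to 18 reads each. What MSCs lacked in the assembly was the extension at the 5′ end and any 3′ extension joined to the annotated exons. A joined path to the far end was assembled only in NPC library 1 and in library 3 with IGF1. These separate transcripts were left out of the Epas1 sums.

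**Figure D3:**
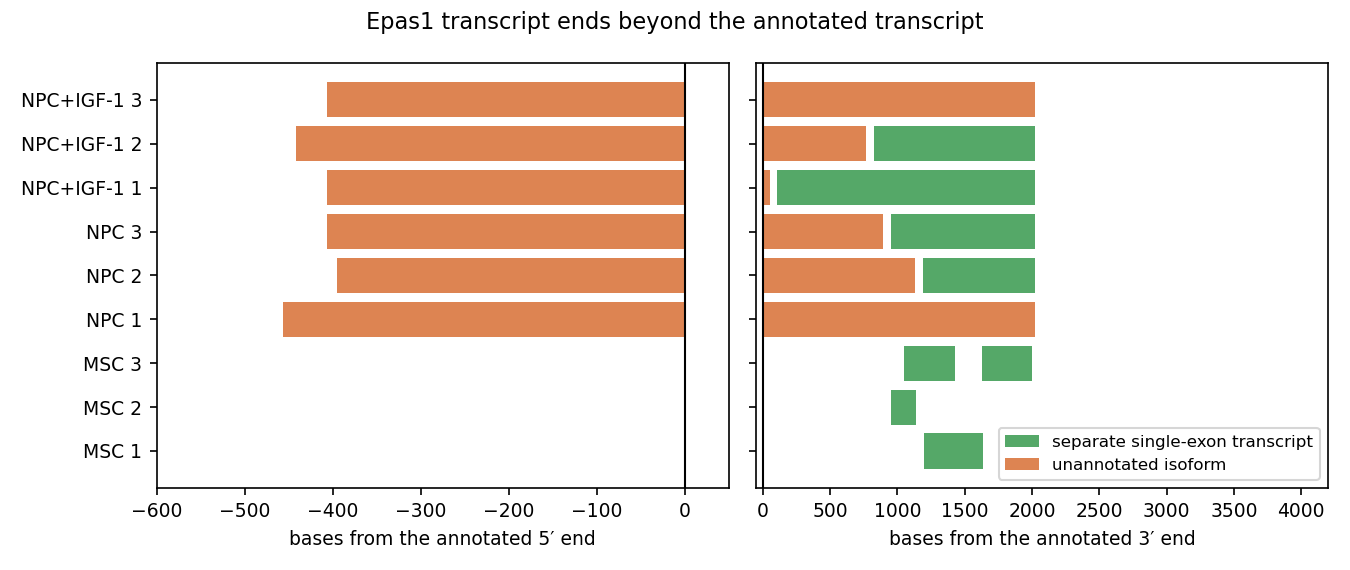
Position of the Epas1 transcript ends beyond the annotated transcript in each library, in bases from the annotated 5′ end (left, negative values are upstream) and 3′ end (right). The longer isoform extends 395 to 456 bases upstream in the 6 induced libraries, and it or a separate transcript reaches 2020 to 2024 bases downstream there, while the 3 MSC libraries hold only separate transcripts up to 1996 bases downstream.

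**Figure D4:**
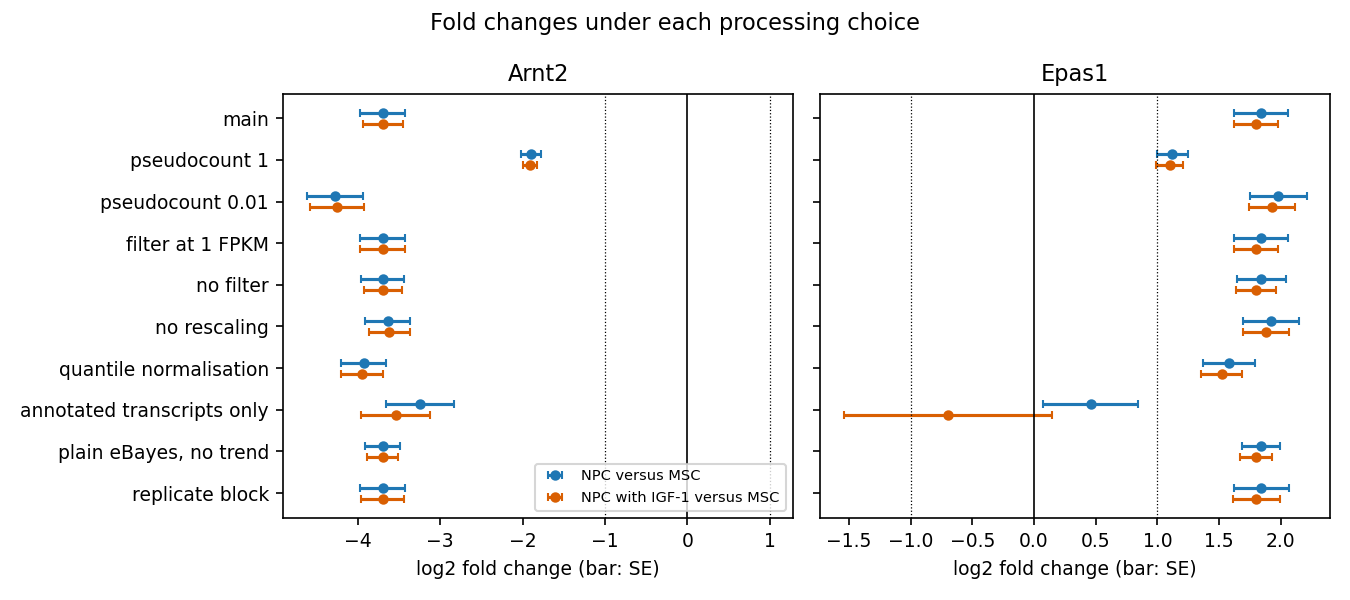
Log2 fold changes of Arnt2 (left) and Epas1 (right) against MSCs under each processing choice, with SEs, for NPCs (blue) and NPCs with IGF1 (orange); dotted lines mark a log2 fold change of 1 in size. Arnt2 stays below -1 in every row shown, and Epas1 stays above 1 except on annotated transcripts only, at 0.46 and -0.70.

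The other genes of these pathways came from textbook lists, and few of them could be named. Names were taken from the study's own tables, many of which hold genes that it found changed, so named genes were called more often than others: 53.3% of 1823 named genes against 21.5% of all genes in NPCs versus MSCs. The counts below are read against the 53.3% and say nothing of the unnamed members of a list.

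Among 15 other bHLH-PAS factors 2 were named, and they moved in opposite directions. Npas2, a partner of the clock factor BMAL1 that can stand in for CLOCK, was at 0.242 to 0.283 FPKM in MSCs and at 1.48 to 2.31 in NPCs, a log2 rise of 2.27 (SE 0.279, limma adjusted p = 0.000952). Npas4, an activity-dependent factor of neurons and a known partner of ARNT2, was at 0.921 to 1.37 FPKM in MSCs and at 0.158 to 0.342 in NPCs, a log2 change of -1.86 (SE 0.299, limma adjusted p = 0.00306). Both calls were lost on annotated transcripts alone, with log2 values of 1.36 (adjusted p = 0.401) for Npas2 and -1.55 (adjusted p = 0.0568) for Npas4. With IGF1 both were also called against MSCs, Npas2 at 2.71 and Npas4 at -1.69.

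Of 23 clock genes 2 were named, and both were called upward. One was Npas2. The other, Hlf, a PAR bZIP factor of clock output, was listed at 0 FPKM in each MSC library and was at 0.106 to 0.259 in NPCs and 0.129 to 0.222 with IGF1. No fold is given for Hlf because its MSC values were all 0. Hlf entered the tests only through the induced libraries, so its calls could only be upward. With any NPC library left out, Hlf was not tested in NPCs versus MSCs.

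Of 8 regulators of HIF proteins 2 were named. Egln3, a prolyl hydroxylase that marks HIF alpha subunits for degradation and is itself a HIF target, was listed at 0 FPKM in each MSC library. It stood at 1.19, 0.575 and 0.0865 FPKM in NPCs, where it missed the minimum of 0.1 FPKM in 3 libraries and was not tested. With IGF1 it stood at 0.610, 2.00 and 1.25 FPKM and was called upward against MSCs (limma adjusted p = 0.00214). Egln3 entered that test only through the induced libraries, so the call could only be upward. Ep300, a coactivator of HIF and many other factors, had a log2 fold change of 0.73 in NPCs (SE 0.192, limma adjusted p = 0.0222), which did not reach 1.

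Among 28 HIF target genes 5 were named. Those described here include 3 that were called upward in NPCs, and since not every named gene of this list is reported, the list as a whole is given no direction. Angptl4, a secreted inhibitor of lipoprotein lipase, had 0.508, 0.622 and 0.715 FPKM in MSCs and 72.9, 89.5 and 187.4 in NPCs. This is a log2 rise of 7.16 (SE 0.364, limma adjusted p = 2.59e-05). Its groups did not overlap. Angptl4 is also a target of PPAR factors.

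Adm and Aldoc moved less than Angptl4. Adm, the vasodilator adrenomedullin, was at 0.830 to 1.38 FPKM in MSCs and 2.36 to 3.30 in NPCs, a log2 rise of 1.36 (SE 0.291, limma adjusted p = 0.00997). Aldoc, the brain form of the glycolytic enzyme aldolase, was at 4.36 to 8.48 FPKM in MSCs and 9.19 to 22.7 in NPCs, a log2 rise of 1.15 (SE 0.331, limma adjusted p = 0.0306). The Aldoc call in NPCs was lost without NPC library 1 (0.85, adjusted p = 0.0886), NPC library 2 (1.14, 0.0763), MSC library 1 (1.15, 0.0735) or MSC library 3 (0.96, 0.0932). With IGF1, Angptl4 (6.59), Adm and Aldoc (1.95) were also called upward against the shared MSC libraries, and the Adm call there (1.08) was lost without MSC library 1 (0.91) or MSC library 2 (0.98). Epo, the hormone erythropoietin, was listed at 0 in 8 of 9 libraries.

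Of 12 partners and targets of AHR 2 were named. Aldh3a1, an aldehyde dehydrogenase of the AHR gene battery, was at 0.00916 to 0.0614 FPKM in MSCs and 0.405 to 0.594 in NPCs, a log2 rise of 2.13 (SE 0.284, limma adjusted p = 0.00142). Its MSC values were all below the minimum of 0.1 FPKM, so Aldh3a1 entered this test only through the NPC libraries. This fixed its direction, and with any NPC library left out Aldh3a1 was not tested. With IGF1 it ranged from 0.0939 to 0.594 and was called against MSCs (1.43, limma adjusted p = 0.0263). Aldh3a1 entered that test, too, only through induced libraries, so an upward direction was favoured. This call was lost without library 1 (0.99) or 2 (1.38) with IGF1 and without MSC library 1 (1.49) or 3 (1.26). Ptges3, the HSP90 co-chaperone p23 that holds AHR in its cytosolic complex, stood at 46.3 to 62.6 FPKM in MSCs and 56.4 to 69.5 in NPCs and was not called (log2 0.12, limma adjusted p = 0.522). No tested gene of these 5 lists was called between the induced groups, and neither was any of the 1894 named genes tested there.

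**Figure D5:**
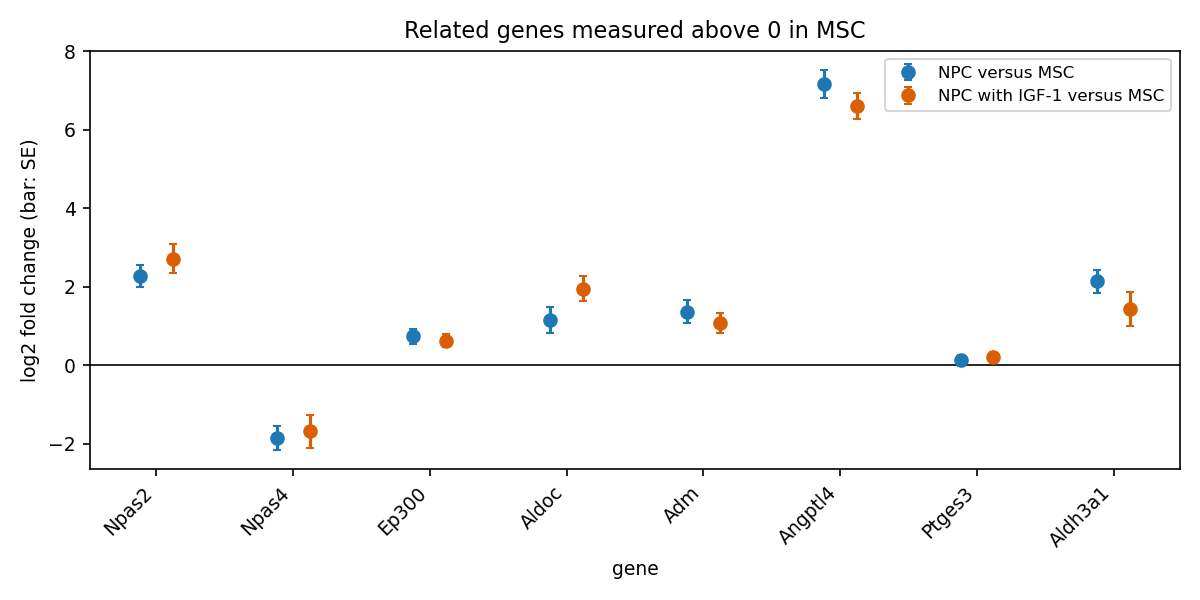
Log2 fold changes against MSCs, with SEs, of the genes of the 5 lists that are described here and had values above 0 in MSCs, for NPCs (blue) and NPCs with IGF1 (orange). Angptl4 is highest at 7.16 and 6.59 and Npas4 lowest at -1.86 and -1.69, and Ptges3 lies near 0.

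The genes whose levels followed Arnt2 and Epas1 most closely were sought among 1305 named genes with a mean of at least 1 FPKM, by Pearson correlation of log2 values over the 9 libraries. For Arnt2, Acat2, an acetyl-CoA acetyltransferase, had the highest value (r = 0.998). Acat2 fell from 11.5 ± 1.07 FPKM in MSCs to 1.86 ± 0.203 in NPCs (SD, n = 3). For Epas1 they were Itpk1, an inositol phosphate kinase (r = 0.996), and Cd68, a lysosomal protein abundant in macrophages (r = 0.996). These 9 points fall into MSCs and induced cells, and 24.1% of the 1305 genes had r above 0.9 with Arnt2 and 19.7% with Epas1, so such values describe a shared step between MSCs and induced cells.

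Markers of the labelled cells and of other cells were checked beside these results. Vim, the intermediate filament of mesenchymal cells, was the 1 named marker of 7 for MSCs and fell from 2733 ± 246 FPKM to 766 ± 104 in NPCs (SD, n = 3). Of 5 neural progenitor markers, Nes was at 0.117 FPKM in MSCs and 0.305 in NPCs, and Msi1 at 0.452 and 0.371. Neither was called, and Nes missed only the size threshold (log2 0.894, limma adjusted p = 0.0419). The neuronal marker Rbfox3 was at 0 in all 9 libraries. Of 6 blood cell markers 2 were named, and their summed FPKM was 0.231 to 0.502 in MSCs, 9.54 to 11.4 in NPCs and 8.93 to 14.4 with IGF1. Almost all of it was Cd68, which rose in NPCs by 4.55 (limma adjusted p = 4e-05), while Ptprc, the defining surface marker of white blood cells, was at 0 in 7 libraries and at most at 0.0142 FPKM. The part of other cells in the Epas1 rise was not tested, and none of 3 endothelial markers was named.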

How the data were processed

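The transcripts of each library, as assembled and deposited by the authors, come with FPKM on a linear scale and a confidence interval in the attribute text. The score column, as deposited by the authors, is the score that Cufflinks gives an isoform within its locus and was not used. The submitters' processing notes name CASAVA 1.8 and bcl2fastq, the aligners Bowtie2 and TopHat, and Cuffdiff beside Cufflinks. No source used here names the build of these files.

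The FPKM of a gene is the sum over its annotated isoforms and those not annotated, which follows the density of reads in the exons they share, and separate single-exon transcripts were left out. Values were divided by size factors (median of ratios). The limma model (version 3.58.1, R 4.3.3, robust eBayes with trend) used log2(FPKM + 0.1), which understates changes of low genes. Genes needed 0.1 FPKM in 3 libraries and a transcript of 300 bases. NPCs and MSCs were compared in a fit of 6 libraries, the other comparisons in a fit of 9. The steps were tested on simulated data. Other steps used Python 3.11.15, pandas 2.3.3, numpy 2.4.6, scipy 1.17.1 and matplotlib 3.10.9.

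Depth was read from the width of the deposited FPKM intervals, which like the implied reads cover counting error only. Names came from the study's tables and cover 2452 gene IDs of the files. Genes were named by a rule of up to 4 of each list, called ones first, and 2 most correlated genes per member, of which some are not reported here. Members and lists were chosen with earlier results of these data known. The alternatives were other pseudocounts, filters and scalings, annotated transcripts only, plain eBayes, other libraries in the fit, a replicate block and leaving out each library.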

Additional observations from a re-analysis of the deposited data

How the results depend on the processing

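The calls of Arnt2 in NPCs and in NPCs with IGF1 against MSCs held under each alternative run, with log2 fold changes of -4.28 to -1.90 in NPCs and -4.25 to -1.91 with IGF1, the ends being pseudocounts of 0.01 and 1. Those of Epas1 held under each except annotated transcripts only (0.46 and -0.70), where 1 of the genes was called in each comparison in place of 2. Leaving out 1 library gave -3.91 to -3.56 and -3.77 to -3.65 for Arnt2 and 1.78 to 1.92 and 1.74 to 1.88 for Epas1. Between the induced groups the Arnt2 value near 0 changed sign with a pseudocount of 1 (-0.0037), quantile normalisation (-0.0093) and annotated transcripts only (-0.29), and it ranged from -0.13 to 0.22 when 1 library was left out, while Epas1, at -0.05, was -1.17 (SE 0.844) on annotated transcripts only and ranged from -0.0835 to 0.0027 without 1 library. Over all genes, 2951 calls in NPCs became 1716 with a pseudocount of 1 and 1199 on annotated transcripts only, and 3044 with IGF1 became 1755 and 1504. The 3 calls between the induced groups became 5 without the filter, 5 with plain eBayes, 19 on annotated transcripts only and 1 to 10 when 1 library was left out. Msi1 with IGF1 against MSCs, not called, turned from 0.10 to -0.20 with quantile normalisation, -0.51 on annotated transcripts only and -0.13 to 0.31 without 1 library. Nes with IGF1 against MSCs, not called at 0.85, was called with a pseudocount of 0.01 (1.29, limma adjusted p = 0.034). In NPCs that pseudocount gave Nes 1.36 and no call (limma adjusted p = 0.0626). Among the related genes, a pseudocount of 1 ended the calls of Adm, Aldh3a1, Hlf and Npas4 in NPCs and with IGF1, and quantile normalisation ended those of Adm and Aldh3a1 with IGF1. Annotated transcripts only ended the calls of Npas2 and Npas4 in both, and also those of Adm (1.48, adjusted p = 0.0644) and Aldoc (1.27, adjusted p = 0.0989) in NPCs and of Aldh3a1 with IGF1 (1.44, adjusted p = 0.197), whose fold changes were no smaller than before. The cause of these changes was not tested, except that annotated transcripts only leaves out FPKM by construction.

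With the replicate number as a block, adjusted p-values were 0.00196 for Arnt2 and 0.00579 for Epas1 in NPCs and 0.000143 and 0.000655 with IGF1, the block left 2866, 3003 and 1 calls over all genes, and no call of Arnt2 or Epas1 changed. Deviations of same-numbered libraries correlated at 0.00801 to 0.103 between NPCs and MSCs, -0.0955 to -0.0408 between MSCs and cells with IGF1 and -0.0214 to 0.0915 between the induced groups. For libraries of different numbers the values were -0.0855 to 0.0459, 0.00323 to 0.062 and -0.0736 to 0.0627, respectively. The study derived its NPCs from the same MSC replicates, but the labels tie no number to a rat, so the numbers were not taken to pair the libraries. Depth limits Arnt2 in induced cells (31 to 75 reads) and Epas1 in MSCs (69 to 87 reads), chiefly for isoforms.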
